A study of Mus musculus with 4 samples.

Results

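The NR4A nuclear receptors, the EGR zinc finger factors and the NAB cofactors of the EGR proteins were followed across the 4 arrays of the series. The members were taken by name, as every probe whose transcript belongs to Nr4a1, Nr4a2, Nr4a3, Egr1, Egr2, Egr3, Egr4, Nab1 or Nab2, which gave 9 genes read by 10 probes, of 18749 named genes on the array. The cells were naive CD4 T cells from the spleen of C57BL/6J mice, which were activated for 2 days by antibodies to TCR-β (at 3 μg ml−1) and to CD28 (at 1 μg ml−1) and kept with IL-2 for 3 more days, at 2.5 ng ml−1 as the labels give it, which is not the concentration in the study's methods. The groups were WT and Bach2 KO Th cells, the latter from Bach2flox/flox mice that also carry CD4-Cre, each unstimulated and re-stimulated for 4 h with the plate-bound anti-TCR-β mAb and no added IL-2, with 1 array per group. The study's methods give mice between 8 and 12 weeks of age. Cre under the Cd4 promoter acts from the thymus onward, so the deletion was not confined to the culture. The study calls its WT controls CD4-Cre mice in its work on the lung, and the labels of these arrays say only Bach2 WT.

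Genes of both families are immediate early genes, whose transcription starts on TCR signalling from factors already in the cell, such as SRF with its ternary complex partners, MEF2 and NFAT. Nr4a1, Nr4a2 and Nr4a3 encode orphan nuclear receptors that bind DNA without a known ligand. A reporter of Nr4a1 is a common readout of TCR signal strength, and the receptors are known to restrain effector T cells. Egr1 follows the ERK pathway, while Egr2 and Egr3 follow calcium and NFAT and are known for their part in T cell anergy. Nab1 and Nab2 encode corepressors that bind EGR proteins and recruit the NuRD complex, and Nab2 is itself a known EGR target, which closes a negative feedback loop.

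The promoters are shown because 8 of the 9 genes were higher together after re-stimulation. RefSeq windows of 300 bases, 250 before and 50 after a start (build GRCm38.p6), were held for 7 of the 9 members, in 11 windows, of which Egr2 had 5. Egr1 and Egr3 had no window, so their promoters were not searched for any motif. Both strands were searched for 5 motifs, namely the CArG box of SRF (by that name), the CRE TGACGTCA, the EGR site GCGNGGGCG, the NR4A site AAAGGTCA and the AP-1 site TGANTCA. A CArG box lay in 4 of the 5 Egr2 windows and in no window of another member, while 1.63% of all 32851 windows held it. The Egr2 windows overlap in part, and the 4 hold 2 distinct boxes. An EGR site lay in the windows of Nr4a1, Nr4a2 and Nab1, against 5.55% of all windows. The other motifs had no match in the members' windows (CRE 1.79%, NR4A site 1.51% and AP-1 site 7.81% of all windows), and no match overlapped one of another motif. A match is a description of these letters and not of binding. The 250 bases before the start are given 5′ to 3′ for Egr2 (chr10:67537619-67537868, + strand, capitals: CArG box) and, with EGR sites in capitals, for Nr4a1 (chr15:101266596-101266845, + strand), Nr4a2 (chr2:57124004-57124253, − strand) and Nab1 (chr1:52500449-52500698, − strand).
Egr2: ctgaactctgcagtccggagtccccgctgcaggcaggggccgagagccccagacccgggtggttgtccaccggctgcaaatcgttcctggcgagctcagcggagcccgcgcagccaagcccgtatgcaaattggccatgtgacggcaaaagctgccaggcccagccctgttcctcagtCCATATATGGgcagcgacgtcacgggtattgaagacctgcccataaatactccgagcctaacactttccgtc
Nr4a1: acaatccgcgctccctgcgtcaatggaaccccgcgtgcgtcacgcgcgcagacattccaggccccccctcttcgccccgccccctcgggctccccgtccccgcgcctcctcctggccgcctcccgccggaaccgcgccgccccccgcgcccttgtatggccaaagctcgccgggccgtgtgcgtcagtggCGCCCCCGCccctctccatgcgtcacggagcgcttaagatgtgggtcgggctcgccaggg
Nr4a2: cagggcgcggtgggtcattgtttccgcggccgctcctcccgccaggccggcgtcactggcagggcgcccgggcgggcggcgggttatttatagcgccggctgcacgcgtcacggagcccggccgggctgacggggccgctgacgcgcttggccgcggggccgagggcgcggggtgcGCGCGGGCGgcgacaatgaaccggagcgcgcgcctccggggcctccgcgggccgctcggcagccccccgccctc
Nab1: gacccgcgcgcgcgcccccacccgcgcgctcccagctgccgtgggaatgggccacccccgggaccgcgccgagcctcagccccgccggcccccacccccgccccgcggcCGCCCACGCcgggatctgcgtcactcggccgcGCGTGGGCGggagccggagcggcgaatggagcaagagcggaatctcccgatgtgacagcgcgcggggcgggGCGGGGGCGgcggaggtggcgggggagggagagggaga
The CArG box of Egr2 ended 63 bases before the start shown. The match of Nr4a1 was on the opposite strand and ended 52 bases before its start, that of Nr4a2 ended 66 bases before its start, and Nab1 had 3 matches, of which the nearest ended 30 bases before its start.

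Signals are background-subtracted intensities as the scanner software gave them, and differences are log2 values after each array was scaled to its own 75th percentile. With 1 array per condition no test was made, so no difference has a replicate check. The ± given is the error that the scanner software assigns to a spot, carried to the difference. At high signal it is a set 10% of the signal, or 0.14 on the log2 scale for 1 array and 0.20 for a difference, and it leaves out the spread between mice and cultures. Probes of the same gene differed by a median SD of 0.15 in the WT response. The probe of the deleted gene, Bach2, read 2932 and 3310 on the WT arrays and 2633 and 3080 on the KO arrays, which gave no clear check of the genotype, so WT and KO stand for the labels. Il4, the Th2 cytokine, was higher on the KO arrays by 2.81 ± 0.20 unstimulated and 3.59 ± 0.20 re-stimulated on the log2 scale. The labels call all mice female, yet Y-linked genes were well above background on the KO arrays and not on the WT arrays. These were Eif2s3y (1185 and 951), Ddx3y (428 and 434) and Kdm5d (77.8 and 64.4). All 11 T cell markers were well above background on all 4 arrays. Mast cell and basophil markers were so for 2 and 1 of 10 genes on the WT arrays (summed signals 213 and 327) and for 7 of 10 on the KO arrays (1463 and 1911), with Ms4a2, Mcpt4 and Tpsb2 not well above background on any. Of 6 B cell markers 2 or 3 were well above background on each array, with Cd79a, Ms4a1 and Pax5 on none. Their summed signals were 587 and 159 on the WT and 603 and 208 on the KO arrays, unstimulated and re-stimulated in turn. Of 6 myeloid markers 1 to 3 were so, with higher sums on the KO arrays (526 and 254) than on the WT arrays (235 and 94.8). Of 6 NK cell markers 3 or 4 were so, with sums of 16920 and 32454 on the WT and 20028 and 40449 on the KO arrays, while Cd8a was so only on the re-stimulated KO array, at 63.0. The part of other cells or of sex in the genotype differences below was not tested. Y-linked signal went with the genotype label, so sex and genotype cannot be told apart on these arrays. In bulk RNA fewer cells of a type and less RNA per cell cannot be told apart either.

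The members Nr4a1, Nr4a2, Egr1, Egr2, Nab1 and Nab2 were well above background on all 4 arrays, and Nr4a3, Egr3 and Egr4 were so only after re-stimulation. On the array of the WT cells, 8 of the 9 members were at least 2-fold higher after re-stimulation, where 13.2% of all 12388 genes compared were, and 0 were at least 2-fold lower, where 13.5% were. In the KO cells the same 8 members were at least 2-fold higher, against 12.4% of 12394 genes, and 0 were lower, against 13.0%. The exception in both genotypes was Nab1. The count of 8 in each genotype was kept with every other scaling of the arrays, while the split of all genes was not. Among all genes past 2-fold in WT cells 49.3% were higher, against 29.1% with scaling to the median and 71.5% with scaling to the Cd3e probe, and in KO cells 48.9% against 30.8% and 67.7%. These scalings moved the median of all genes by -0.30 and 0.30 in WT and by -0.27 and 0.26 in KO cells.

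**Figure D1:**
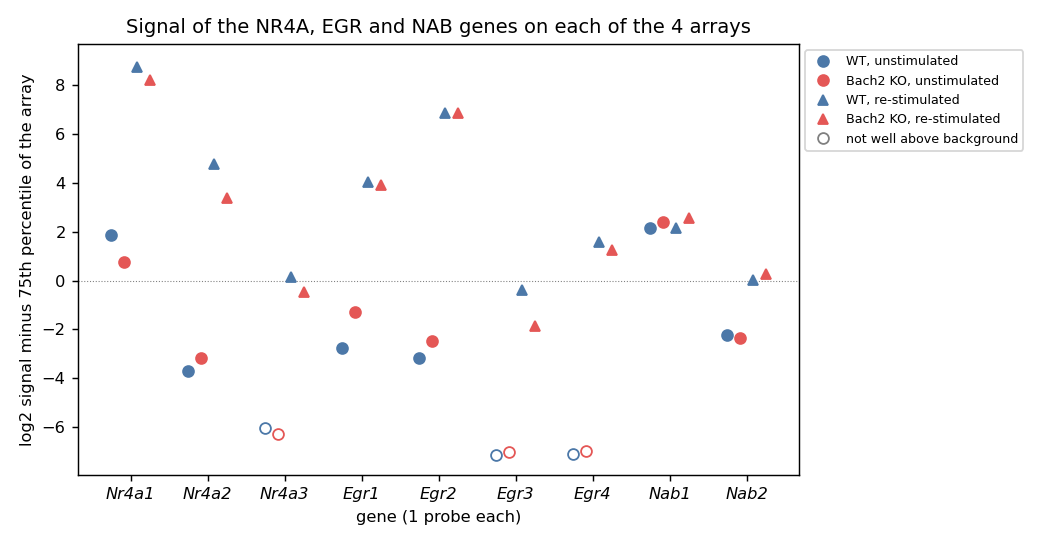
Signal of each member on each of the 4 arrays, as log2 signal minus the 75th percentile of its array (vertical axis), for 1 probe per gene (horizontal axis); bars are the error of the scanner software and are mostly smaller than the marks, and open marks are not well above background. Circles (unstimulated) lie below triangles (re-stimulated) for every gene but Nab1, whose 4 marks lie close together.

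Nr4a1, which encodes Nur77, had a signal of 1563 on the unstimulated WT array, 733 on the unstimulated KO array, 131898 on the re-stimulated WT array and 104661 on the re-stimulated KO array. The re-stimulated arrays were both far above the unstimulated ones, and within each state the KO array was the lower. The response was 6.88 ± 0.20 in WT cells, or 118-fold, and 7.46 ± 0.20 in KO cells, or 176-fold. No spot of any array was flagged as saturated.

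Nr4a2, which encodes Nurr1, had signals of 34.0 in WT and 48.2 in KO cells unstimulated and of 8515 and 3604 re-stimulated. Its response was 8.45 ± 0.24 in WT cells, 350-fold, and 6.52 ± 0.23 in KO cells, 92.0-fold. The size depended on how dim signals were treated. With the normexp correction, which adds an offset to all signals, followed by quantile normalization, the responses were 6.75 and 5.20. Here the order of the genotypes turned, with KO above WT before re-stimulation and below it after. The unstimulated pair did not differ beyond its error, since the interval of the difference, from -0.00 to 1.03, held 0.

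Nr4a3, which encodes Nor1, was not well above background in either unstimulated sample and had signals of 346 in WT and 252 in KO cells after re-stimulation. Against the lowest signal well above background on each unstimulated array, 15.1 and 16.8, it was at least 31.9-fold higher in WT and at least 18.5-fold higher in KO cells. These are bounds, so the responses of the genotypes cannot be set against each other for this gene. They hold for the main processing only, and with the normexp correction the log2 responses were 2.68 in WT and 2.29 in KO cells. The 3 receptors thus had the same direction in both genotypes.

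Egr2 had the largest response among the 6 members measured on all 4 arrays, 10.04 ± 0.23 in WT cells, or 1049-fold, and 9.33 ± 0.22 in KO cells, or 644-fold. Its responses fell to 8.47 and 8.21 with the normexp correction. With genes that have only a lower bound ranked at that bound, it stood at rank 8 of 12388 genes in WT and 10 of 12394 in KO cells, so its true rank may be lower. Its probe is spotted 10 times on each array, which gives a second measure of error for this gene, from repeat spots of the same labelled RNA. The spots read from 40.6 to 55.8 (median 47.8) in unstimulated WT cells and from 69.3 to 85.9 (median 77.0) in unstimulated KO cells, and these ranges did not overlap. After re-stimulation they read from 33936 to 38956 (median 36050) in WT and from 38059 to 43431 (median 40372) in KO cells, and overlapped. The SD over the spots was 0.14 and 0.10 on the log2 scale unstimulated and 0.06 on both re-stimulated arrays. The CArG box printed above lies before a start of this gene, and whether it bears on the response was not tested.

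**Figure D2:**
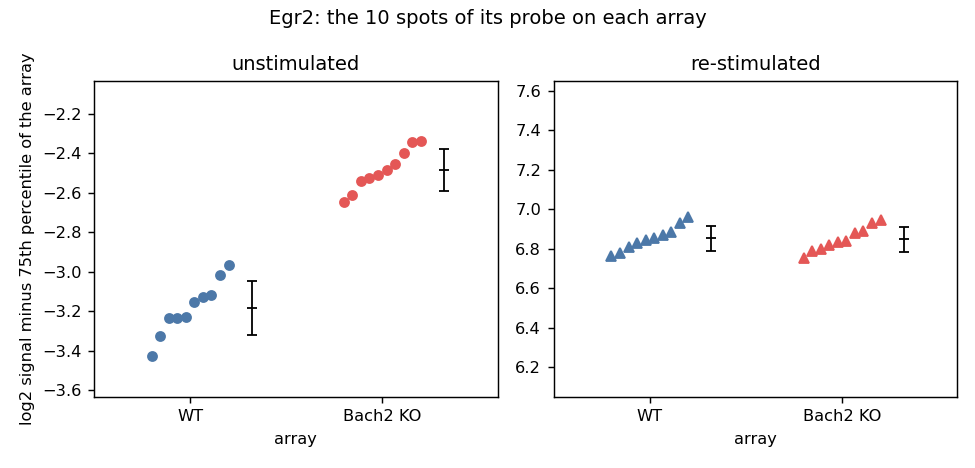
The 10 spots of the Egr2 probe on each array, ordered by value, as log2 signal minus the 75th percentile of the array; the black bar is the mean ± SD of the spots, which are repeats within an array and not replicates of a condition. The spots of the KO array lie above all those of the WT array when unstimulated, and the arrays lie together when re-stimulated; the panels have different vertical ranges of equal length.

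Egr1, the factor that follows ERK most closely, had signals of 64.8 in WT and 178 in KO cells unstimulated and of 5032 and 5232 re-stimulated. The re-stimulated arrays lay together, and the unstimulated ones apart. The response was 6.76 ± 0.22 in WT cells, 108-fold, and 5.17 ± 0.21 in KO cells, 36.1-fold, and fell to 5.59 and 4.59 with the normexp correction.

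Egr3 and Egr4 were not well above background in unstimulated cells of either genotype. Egr3, which acts with Egr2 in T cells, had signals of 238 in WT and 97.6 in KO cells after re-stimulation, at least 21.9-fold and at least 7.16-fold higher. Egr4, the member of the family that NAB proteins are not known to bind, had signals of 933 and 828, at least 86.1-fold and at least 60.7-fold higher. These bounds also hold for the main processing only. With the normexp correction the log2 responses in WT and KO cells were 2.33 and 1.28 for Egr3 and 4.04 and 3.78 for Egr4. All 4 EGR genes thus shared a direction with the NR4A genes in both genotypes.

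The cofactors differed from each other. Nab1 had signals of 1926, 2283, 1393 and 2078 in unstimulated WT, unstimulated KO, re-stimulated WT and re-stimulated KO cells, a response of 0.01 ± 0.20 in WT and 0.16 ± 0.20 in KO cells. Both were within their error, and their sign turned with the scaling to the median of all probes, to -0.28 and -0.10. A second probe of Nab1 read 433, 504, 282 and 456, with responses of -0.14 ± 0.21 and 0.15 ± 0.20, also within error.

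Nab2 had signals of 94.3 and 85.6 in unstimulated WT and KO cells and of 313 and 424 re-stimulated. Its response was 2.21 ± 0.21 in WT cells, 4.63-fold, and 2.61 ± 0.21 in KO cells, 6.10-fold, the smallest of the 5 responses past 2-fold that were measured on both arrays. Nab2 overlaps Stat6 at its 3′ end in the annotation. Stat6 itself had a response of 0.60 ± 0.20 in WT and 0.49 ± 0.20 in KO cells, and whether transcripts of Stat6 add to the Nab2 signal was not tested.

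**Figure D3:**
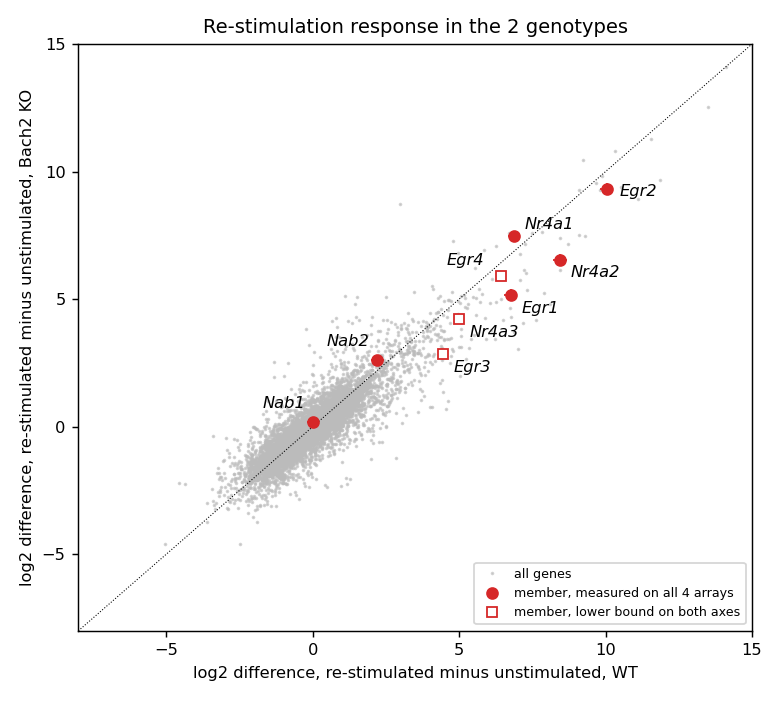
Response to re-stimulation in WT cells (horizontal axis) and in KO cells (vertical axis), both as log2 differences, for all genes compared in both genotypes (grey, dim values raised to the lowest signal well above background) and for the members (red); bars are the error of the scanner software, open squares are lower bounds on both axes and the dotted line marks equal responses. Nr4a1 and Nab2 lie above the line and Nr4a2, Egr1 and Egr2 below it.

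Before re-stimulation the genotypes were compared for the 6 members that had a signal. Egr1 was at least 2-fold higher in KO cells, 1 of 6 members against 5.26% of all 12136 genes, and Nr4a1 was at least 2-fold lower, 1 of 6 against 2.82%. The difference of Egr1 was 1.47 ± 0.22, or 2.76-fold, but 0.85 with the normexp correction, which adds an offset to all signals and brings dim ones together. That of Nr4a1 was -1.09 ± 0.20, or 2.12-fold, and -0.95 with scaling to Cd3e, short of 2-fold. The KO cells were thus higher for an EGR gene and lower for an NR4A gene.

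The other members differed by less than 2-fold in unstimulated cells. Egr2 was higher in KO cells by 0.70 ± 0.24, but by 0.27 with the normexp correction. The error from its 10 spots was 0.05, which leaves out this dependence on the processing. Nr4a2 differed by 0.51 ± 0.26, Nab1 by 0.25 ± 0.20 and Nab2 by -0.13 ± 0.22, each with a 95% interval that held 0, and the sign of Nab2 turned with scaling to Cd3e, to 0.01. Nr4a3, Egr3 and Egr4 gave no difference, since both arrays were at background.

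After re-stimulation all 9 members could be compared. None was at least 2-fold higher in KO cells, where 5.17% of all 12348 genes were, and 2 of 9 were at least 2-fold lower, where 3.85% were. These were Nr4a2, with a difference of -1.41 ± 0.20, or 2.67-fold, and Egr3, with -1.46 ± 0.21, or 2.74-fold. Both kept the direction and the 2-fold size under the other ways of processing that were run, with Nr4a2 between -1.44 and -1.32 and Egr3 between -1.49 and -1.09. With a 3-fold rule neither was past it.

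The other re-stimulated differences were smaller. Nr4a3 had a difference of -0.63 ± 0.21 and Nr4a1 of -0.51 ± 0.20, both with 95% intervals below 0. Egr4 had -0.35 ± 0.20, Egr1 -0.12 ± 0.20 and Egr2 -0.00 ± 0.20, all with 95% intervals that held 0, and the sign of Egr2 depended on the scaling, with values from -0.03 to 0.09. All 3 NR4A genes were therefore lower on the KO array, and of the EGR genes only Egr3 had a 95% interval below 0. Nab1 (0.40 ± 0.20, and 0.52 ± 0.21 from its second probe) and Nab2 (0.26 ± 0.20) were on the other side of 0. The 95% intervals of both Nab1 probes lay above 0, that of the first only just, from 0.003. The value of the first was 0.37 with scaling to the median.

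**Figure D4:**
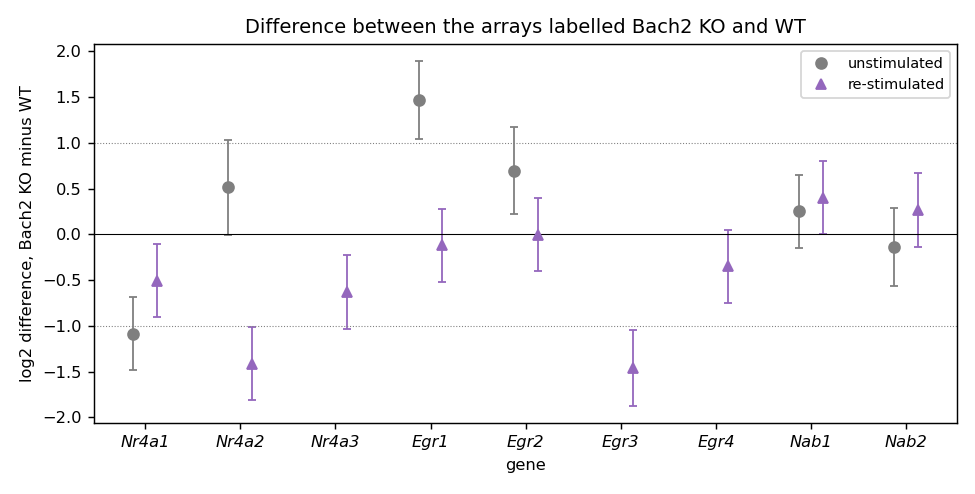
Log2 difference between the KO and WT arrays (vertical axis) for each member (horizontal axis), unstimulated (grey circles) and re-stimulated (purple triangles); bars are 95% intervals from the error of the scanner software, dotted lines mark 2-fold, and genes at background on both arrays have no mark. Egr1 (1.47) and Nr4a1 (-1.09) lie past 2-fold when unstimulated, and Nr4a2 (-1.41) and Egr3 (-1.46) when re-stimulated.

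The response in KO cells was then set against that in WT cells for the 6 members well above background on all 4 arrays, as the response in KO minus that in WT cells. Of these, 2 had a response at least 2-fold smaller in KO cells, where 3.00% of 10810 such genes had, and 0 a response at least 2-fold larger, where 1.82% had. Nr4a2 differed by -1.93 ± 0.33 and Egr1 by -1.58 ± 0.30. For Nr4a2 the larger part of this lay in the re-stimulated arrays and for Egr1 in the unstimulated arrays. With the normexp correction the value of Egr1 fell just short of 2-fold. Over all 9 members, with dim values raised to the lowest signal well above background, 3 of 9 were past 2-fold in this direction, against 4.72% of 12964 genes, and 0 in the other, against 3.83%. The added gene was Egr3, whose value rests on a raised signal in both unstimulated samples and is no bound.

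Egr2 had a difference of responses of -0.70 ± 0.32, with 0.06 as the error from its spots, but of -0.26 with the normexp correction. Nr4a1 had one of 0.58 ± 0.29, the opposite direction. Nab2 (0.40 ± 0.30) and Nab1 (0.15 ± 0.29) had 95% intervals that held 0. The members thus did not move as a block between the genotypes, as the plot of both responses shows.

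The 39 other immediate early and TCR response genes on the array, of 40 listed, were mostly higher with the members. Of 38 with a value, 32 were at least 2-fold higher and 0 lower in WT cells, where 13.2% and 13.5% of all genes were. The median log2 response was 2.47, where that of all genes was -0.01. In KO cells 29 were higher and 0 lower, against 12.4% and 13.0% of all genes, with a median of 1.90 against 0.01. Among those well above background on both arrays, the largest responses in WT cells were those of Atf3, an AP-1 partner (6.23), Gadd45b (5.88) and Phlda1 (5.27), beside Il2, the T cell growth factor, whose signal went from 17.5 to 37530 (11.54). In KO cells, where Il2 was not well above background before re-stimulation, Plk2 (4.98), Fosl1 (4.83), Phlda1 (4.66) and Dusp4, a MAP kinase phosphatase (4.47), led. Egr2 had a larger measured response than each of these but Il2.

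Before re-stimulation 9 of 37 of these genes were at least 2-fold higher in KO cells and 0 lower, where 5.26% and 2.82% of all genes were (median 0.17, all genes -0.00). The largest differences, on the side of Egr1, were those of Atf3 (2.28 ± 0.21), Phlda1 (1.41 ± 0.20), Nfil3 (1.41 ± 0.20) and Gadd45b (1.33 ± 0.20). After re-stimulation 0 of 38 were higher and 2 were lower, where 5.17% and 3.85% of all genes were (median -0.17, all genes 0.02). The count of lower genes was thus near the share of all genes. These were Fosb (-1.81 ± 0.21) and Fos (-1.39 ± 0.20), AP-1 subunits, lower as Nr4a2 and Egr3 were. The signals of Fos were 53.4 and 56.4 in unstimulated WT and KO cells and 830 and 356 re-stimulated. As for Egr1, the response was smaller in KO cells for Atf3 (-2.79 ± 0.29) and Gadd45b (-1.63 ± 0.29), and 8 of 38 genes had a response at least 2-fold smaller and 0 a larger one, where 4.72% and 3.83% of all genes had. Both counts and shares include genes with raised dim values. Fosb (-1.96) is 1 of the 8, and its value rests on raised signals in both unstimulated samples and is no bound.

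The factors that act upstream of the members, namely calcineurin, NFAT, MEF2 and SRF with its partners, did not share these responses. Of 19 with a value, 1 was at least 2-fold higher and 3 lower in WT cells (median -0.16), where 13.2% and 13.5% of all genes were. In KO cells 0 were higher and 3 lower (median -0.24), where 12.4% and 13.0% of all genes were. The counts of lower genes were near these shares. Rcan1, an inhibitor of calcineurin, was the gene that was higher (1.21 ± 0.21), and Hdac7, a MEF2 repressor that holds back Nr4a1 in thymocytes, was lower in WT cells (-1.43 ± 0.20). Nfatc2 (-1.08 ± 0.24 and -1.17 ± 0.24) and the calcineurin subunit Ppp3cb (-1.09 ± 0.20 and -1.05 ± 0.20) were lower in both genotypes. Mrtfa, a cofactor of SRF, was lower by more than 2-fold in KO cells (-1.50 ± 0.20) and had a value of -0.97 in WT cells. Between genotypes 0 of 19 were past 2-fold in either state. Of all genes 5.26% were higher and 2.82% lower unstimulated, and 5.17% and 3.85% re-stimulated, so few of 19 would be.

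Among the partners of the members, 12 of 13 NuRD genes were on the array. On re-stimulation 0 were at least 2-fold higher, where 13.2% of all genes in WT and 12.4% in KO cells were. Mta3 was lower in WT (-1.27 ± 0.20) and, with Chd3 (-1.17 ± 0.20), in KO cells (-1.19 ± 0.20), and the medians were -0.20 in both. That made 1 of 12 at least 2-fold lower in WT and 2 in KO cells, where 13.5% and 13.0% of all genes were. Between genotypes 0 of 12 were past 2-fold in either state. Of all genes 5.26% were higher and 2.82% lower unstimulated, and 5.17% and 3.85% re-stimulated, so few of 12 would be. Of the RXR receptors, which pair with Nr4a1 and Nr4a2, Rxra and Rxrb were measured and none was past 2-fold. Rxra was at 0.64 ± 0.20 between the re-stimulated arrays. With 2 genes, a count of 0 is near the shares of all genes.

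Of 17 genes linked to anergy and inhibition by EGR or NR4A factors on the array, 16 had a value. In WT cells 10 were at least 2-fold higher on re-stimulation and 1 lower (median 1.36), against 13.2% and 13.5% of all genes, and in KO cells 11 and 2 (median 2.17), against 12.4% and 13.0%. The largest of those well above background on both arrays were Crtam (7.82 and 7.63), Havcr2, which encodes Tim-3 (5.59 and 4.39), Pdcd1, which encodes PD-1 (4.97 and 4.44), and Cd200 (4.28 and 5.05). EGR and NR4A factors are known to act on several of these genes, which was not measured here.

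Between the genotypes this list was split. In unstimulated cells 5 of 16 were at least 2-fold higher in KO and 3 lower (median 0.45), where 5.26% and 2.82% of all genes were, and in re-stimulated cells 4 and 2 (median 0.05), where 5.17% and 3.85% were. Havcr2 had the largest difference in both states, 1.90 ± 0.20 in the re-stimulated one, with signals of 152 and 1290 in unstimulated and 5230 and 21961 in re-stimulated WT and KO cells. Rnf128, which encodes the ubiquitin ligase GRAIL, was also higher in both (1.64 ± 0.22 and 1.34 ± 0.29), and Lag3 was higher by 1.70 ± 0.20 after re-stimulation. Cd200 (-1.96 ± 0.28 and -1.18 ± 0.20) was lower in both, and Tox, a factor of exhausted T cells, was lower in unstimulated KO cells (-1.99 ± 0.26).

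**Figure D5:**
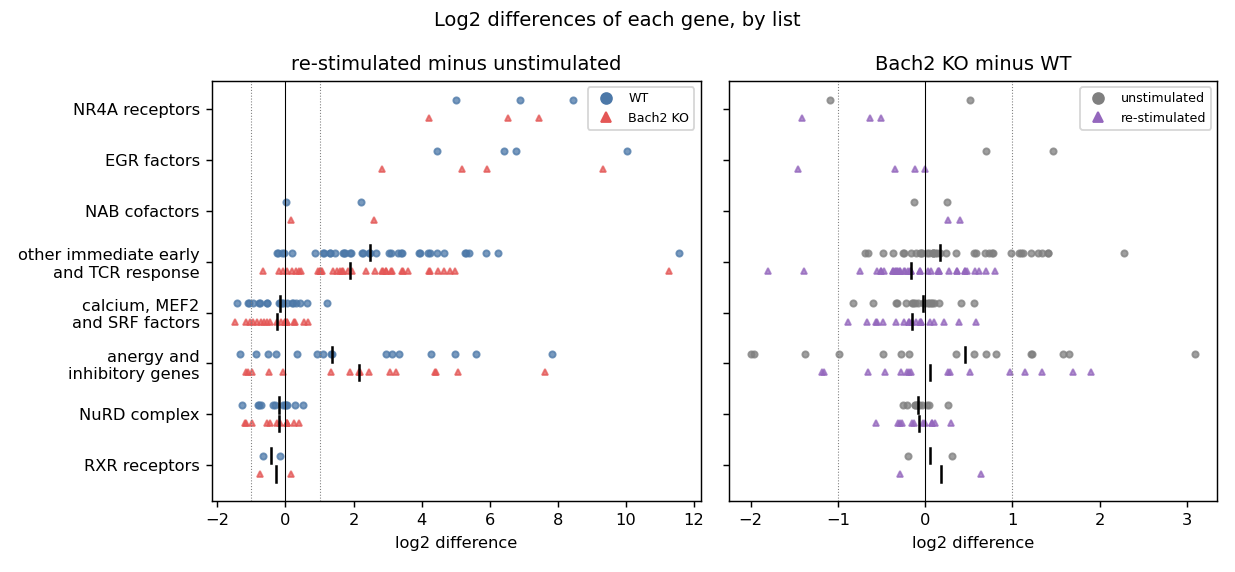
Log2 difference of each gene (horizontal axis) by list (vertical axis), on re-stimulation in each genotype (left) and between genotypes in each state (right); each mark is 1 gene, dim values stand at the lowest signal well above background, black bars are medians of the lists that are not the members and dotted lines mark 2-fold. The immediate early genes have medians of 2.47 and 1.90 on re-stimulation, while the calcium, MEF2, SRF and NuRD genes lie around 0.

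The genes most like each family were sought by the distance of their log2 profile over the 4 arrays, centred per gene, from the mean profile of the members with a signal on every array, among 10804 other genes. Nearest to the mean of Nr4a1 and Nr4a2 were Crtam (root mean square distance 0.27), Tnnc2 (0.27), Mpzl2 (0.45), Pdzk1ip1 (0.68) and Csf2 (0.79). Both receptors lay on opposite sides of 0 between the unstimulated genotypes (-1.09 and 0.51), so their mean is the profile of neither. Nearest to the mean of Egr1 and Egr2 were Csf2 (0.30), Mpzl2 (0.34), Rgs16 (0.35), Ifng (0.37) and Crtam (0.50). Crtam, Mpzl2 and Csf2 were thus near both families, and their likeness was not particular to either. Csf2 and Ifng encode cytokines of effector T cells, GM-CSF and IFN-γ, and Rgs16 a regulator of G protein signalling. Ifng, as Egr1, was higher in unstimulated KO cells (1.75) and not in re-stimulated ones (-0.09). Csf2 (0.82 and 0.72) and Rgs16 (1.72 and 0.69) were higher in KO cells in both states. Crtam (-0.27 and -0.46) and Tnnc2 (-0.15 and -0.46) were lower in both, as Nr4a1, but by less than 2-fold in each. Mpzl2 (0.66 and -0.91) turned, as Nr4a2, and Pdzk1ip1 was higher (0.06 and 0.93). The nearest genes thus did not share a pattern between the genotypes. All of these genes had responses between 6.72 and 9.30 in WT cells, and the likeness is a description of 4 arrays.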

How the data were processed

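Total RNA of Th cells was read on 4 one-colour (Cy3) Agilent arrays, 1 per group, mapped from the labels. The authors deposited the spot intensity that Feature Extraction (10.7.3.1 in the header) gives after subtracting background, with flags for spots well above background. The authors also deposited a log2 table, which matched the scaled values within 0.01 for at least 41001 of 41173 probes.

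Flagged spots (107 to 120 per array) were left out. The log2 values of a probe's spots were averaged, and the 75th percentile of the array was subtracted. By transcript accession 27479 probes (66.7%) matched a RefSeq gene table. A gene was read from its brightest probe and compared where at least 1 array was well above background, with a dim value raised to the lowest signal well above background on its array (14.5 to 17.2), so that such a fold is a bound. On each array 53.6% to 54.0% of probes were well above background. With 4 arrays, their number limits the precision. Counts use a 2-fold rule of size. All members are named, and other genes when among the 4 largest absolute differences of their list with both arrays well above background, or among the 5 nearest profiles. The members and lists were chosen with earlier results of these data known. The 10 alternatives comprised scaling to the median, to Cd3e or to the percentile of detected probes, quantile normalization, normexp (offset 50) with quantile normalization, the authors' log2 table, the mean over probes, filters on dim probes and a 3-fold rule. R 4.3.3 with limma 3.58.1 and pandas 2.3.3 with numpy 2.4.6 on Python 3.11.15 were used, and the scripts were tested on simulated data.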

Additional observations from a re-analysis of the deposited data

Results flagged for a closer look

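For 4 members the difference between KO and WT lay on opposite sides of 0 in unstimulated and re-stimulated cells, each read on 1 array, and these changes were not tested. Nr4a2 went from 0.51 to -1.41, a change of -1.93 on the log2 scale, and the 95% interval of its unstimulated value held 0. Egr1 went from 1.47 to -0.12, a change of -1.58, and the 95% interval of its re-stimulated value held 0. Egr2 went from 0.70 to -0.00, a change of -0.70, and its re-stimulated value is 0 within its error. Nab2 went from -0.13 to 0.26, a change of 0.40, and the 95% intervals of both values held 0.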

How the results depend on the processing

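Over the alternatives to the main processing, 284 of 369 values of members stayed within the spread between probes, 85 moved further and 0 turned in sign where they were past 2-fold; of 225 list medians 181 stayed, 44 moved and 0 of those past 2-fold turned. Counts of members changed as follows. Where a signal well above background was asked of each array compared, 5 members were higher on re-stimulation in WT and 5 in KO cells, since Nr4a3, Egr3 and Egr4 were then not compared. In unstimulated cells the count of members lower in KO was 0 with scaling to Cd3e, and the count higher was 0 with the normexp correction. With a 3-fold rule 0 members were higher and 0 lower in unstimulated and 0 lower in re-stimulated KO cells. Counts over all genes, higher and lower in turn, moved more. On re-stimulation in WT cells, scaling to the median gave 2664 lower and scaling to Cd3e 2490 and 993, with 1043 lower in KO cells. The normexp correction gave 899 higher in WT and 880 in KO cells, 267 and 109 between unstimulated genotypes, 315 and 233 between re-stimulated ones and 152 and 213 for the difference of responses. The same demand gave 425 and 221 between unstimulated genotypes and 197 and 324 for the difference of responses. No filter and no floor gave 2951 higher in WT and 2890 in KO cells, 1212 and 686 unstimulated, 1437 and 1024 re-stimulated and 1285 and 1451 for the difference of responses, with 59.5% and 59.7% of all genes past 2-fold higher on re-stimulation in WT and KO cells. The 3-fold rule gave 797 and 557 in WT, 723 and 558 in KO cells, 301 and 127 unstimulated, 275 and 170 re-stimulated and 189 and 227. The median moved by 0.14 between unstimulated genotypes with scaling to Cd3e. No paired analysis was possible because each condition has 1 array and the labels carry no replicate number. No replicate could be left out.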
